A study of Mus musculus with 8 samples.

Results

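The genes described here make the machinery that copies DNA behind the replicative helicase, and the deoxynucleotides and histones that copying uses. They are 34 named genes of the DNA polymerases, primase, clamp and clamp loader, RPA, GINS, Okazaki fragment maturation, chromatin assembly and nucleotide synthesis, taken by name from the 48440 genes of the deposited table, and all 34 were found there. The samples are 8 libraries of RNA from epithelial cells of the jejunum, taken from female Sox9-EGFP mice (C57BL/6J background) and sorted for a low level of the reporter. Sox9-EGFP reports the activity of Sox9, a transcription factor of crypt cells, by green fluorescence, and all animals carry it. The 4 conventionalized (CV) animals were born germ-free, were moved to another animal facility at 8 to 10 weeks of age, were given by gavage a slurry of feces from a conventionally raised colony with the same reporter, and were studied after 2 weeks. The 4 germ-free (GF) animals are their littermates, 1 to each pair (A to D), which stayed germ-free. Gating had removed cells positive for CD45, CD31, Sytox-blue or Annexin-V, and the condition went together with a change of animal facility, so microbiota and facility cannot be told apart.

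At a replication fork, GINS joins the Mcm ring and Cdc45 to form the active helicase, and RPA coats the single strands it exposes. Polymerase alpha-primase lays down short primers, the clamp loader RFC sets the ring-shaped clamp PCNA on them, polymerase epsilon extends the leading strand and polymerase delta the lagging strand, whose Okazaki fragments FEN1 trims and LIG1 joins. Ribonucleotide reductase, thymidylate synthase, dUTPase and thymidine kinase provide deoxynucleotides, and CAF-1 places new histones on the copied DNA. In the small intestine, dividing stem and progenitor cells sit in the crypts, and many of these genes are transcribed mainly in cells that enter S phase.

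Values are CPM, the signal of a gene relative to the TMM-scaled total of its library. Means carry the SD over the 4 animals of a group. Fold changes are log2 ratios, CV over GF, on log2(CPM + 0.5), with a standard error (SE) and an adjusted p from limma. Depth on an approximate read scale ran from 6209041 to 19139685 per library, with the lowest in GF library C. That library stood apart. Its median correlation with the others of its group was 0.792, against 0.871 to 0.943 for the other 7. In it, all tested genes with transcripts of up to 1000 bp were at a median of -1.41 (log2, relative to each gene's mean over the 8 libraries), and those over 4500 bp at 0.02. The reporter's own gene, Sox9, had 378 ± 109 CPM in CV and 246 ± 82.7 CPM in GF libraries (log2 fold change 0.64, SE 0.36, adjusted p = 0.241) and did not pass the test.

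All 34 replication fork and nucleotide supply genes had higher mean log2 levels in CV animals, with log2 fold changes from 0.29 (Pola1) to 1.69 (Tyms) and a median of 1.32, against 0.32 over all 10053 genes tested. 4 genes rose at an adjusted p under 0.05, the primase subunit Prim2, the clamp loader subunit Rfc5, the catalytic subunit of polymerase epsilon Pole and the large subunit of ribonucleotide reductase Rrm1, and 0 fell. Over all tested genes 1.16% rose and 3.76% fell. With the littermate pair as a block 26 of 34 rose and 0 fell, where 8.08% of all tested genes rose and 5.02% fell. All 34 passed the expression minimum of 10 CPM in at least 4 libraries, 22 of them in all 8, and each reached it in at least 1 GF library (Gins3 in that of pair B alone, at 10.2 CPM). An unadjusted p under 0.05 was reached by 32 of them and by 19.7% of all tested genes in the same direction. In bulk RNA, fewer cells with a transcript and less of it per cell cannot be told apart.

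The direction was shared by most animals, and its size was not. In 20 of the 34 genes every CV value was above every GF value, against 9.03% of all tested genes, and in 0 every one was below, against 5.88%. In 29 the CV littermate was higher in all 4 pairs, against 28.4% of all tested genes. The median log2 difference within a pair was 1.15, 0.42, 2.13 and 1.36 in pairs A to D, where all tested genes had 0.32, 0.06, 0.35 and 0.49. Pair B thus had the smallest difference and pair C the largest. Of GF libraries, that of pair B held the highest value of 29 genes, and that of pair C the lowest of all 8 values in 31, as it did for 49.4% of all tested genes. CV library D held the highest of all 8 values in 28 genes. For these counts of CV library D and GF library B, the share over all tested genes was not computed. CV library D was raised for all tested genes too, with medians from 0.73 (transcripts of up to 1000 bp) to 0.03 (over 4500 bp), log2 relative to each gene's mean. In GF library B these medians ran from 0.25 to -0.04.

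**Figure D1:**
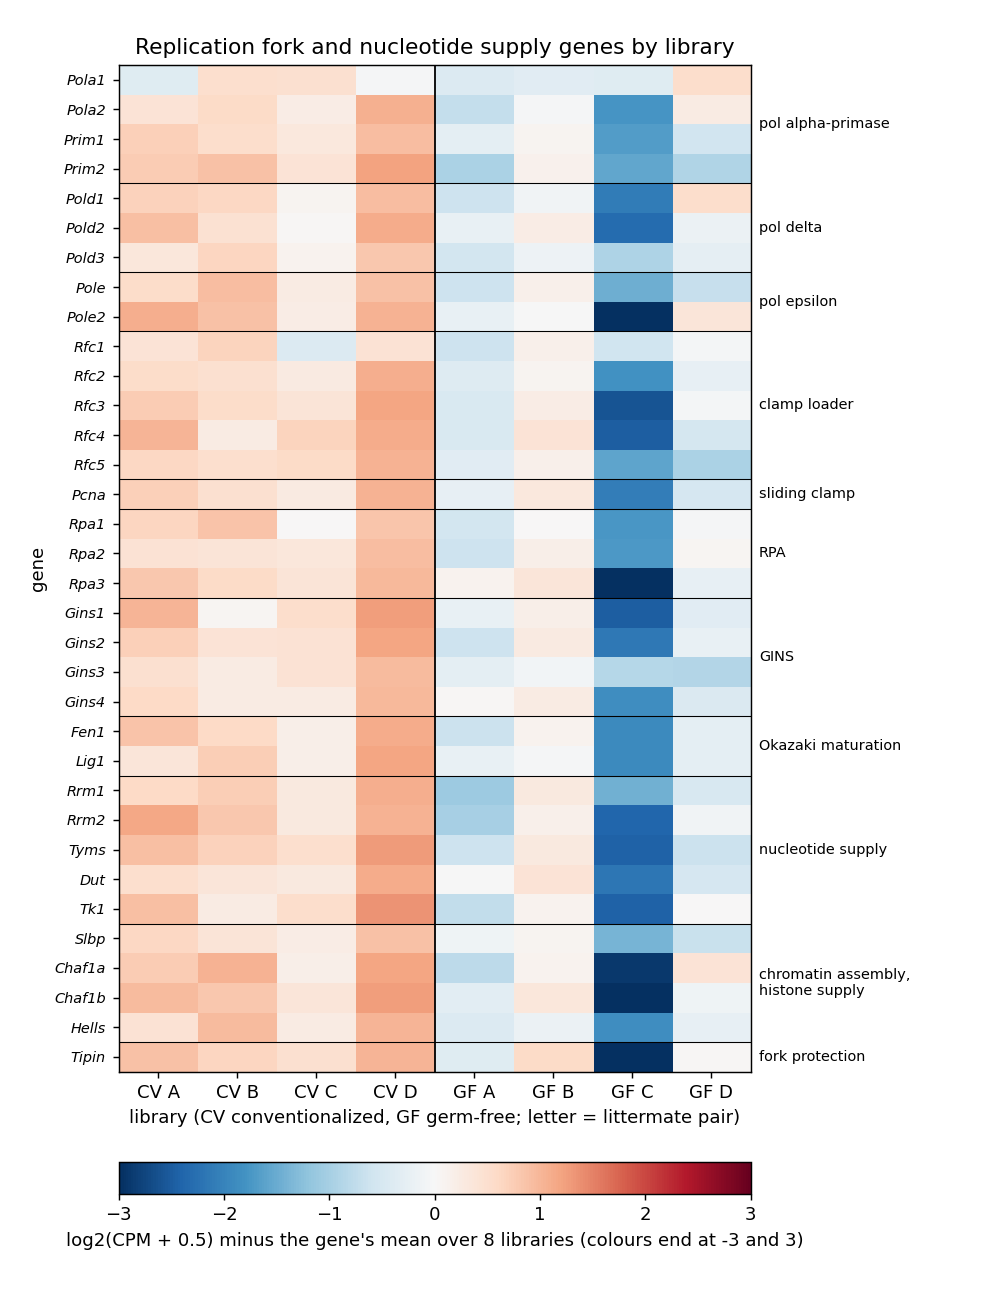
Heat map of the 34 replication fork and nucleotide supply genes (rows, grouped by complex) in 8 libraries (columns, CV left and GF right, with the letter of the littermate pair). Colour gives log2(CPM + 0.5) minus the gene's mean over the 8 libraries; GF library C is the darkest blue column, and Pola1 and Rfc1 are the palest rows there.

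The number of genes called changed when single libraries were left out, and the cause was not tested. Without CV library A, B, C or D, 0, 0, 1 and 0 of these genes rose, where 32, 14, 23 and 14 of all tested genes did. Without GF library A, B, C or D, 0, 13, 9 and 1 of the set rose. Over all tested genes 31, 410 and 235 rose without GF library A, B or C, and the number without D lay within the range given further below. With the block, 15, 30, 5 and 2 of the set rose when pair A, B, C or D was left out. The number that rose over all tested genes also differed widely between these pair fits, and its range is given further below. These counts are therefore not a result about the set alone. The median log2 fold change was 0.82 without GF library C, with 2.42% of all tested genes higher and 3.66% lower, and 0.82 without that library and CV library A together. Each fold change of a tested gene of the set was positive in every one of these fits.

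Genes that act in S phase are known targets of E2F transcription factors, so the promoters were searched for E2F words. RefSeq windows of 250 bases before to 50 after the annotated start (GRCm38.p6) were at hand for 27 of the 34 genes. The words TTTCCCGC, TTTGGCGC, TTTCGCGC and TTTGCCGC, on either strand, occurred in 8 of the 27 genes (29.6%), against 5.05% of 7827 tested genes and 2.61% of 27025 genes with such a window. The word CCAAT, which the factor NF-Y binds, occurred on either strand in 14 (51.9%), against 43.4% and 41.1%. TTTGAA, the word of the cell-cycle homology region of mitotic promoters, occurred in 3 (11.1%), against 14.2% and 20.2%. No matches in these genes overlapped. A match is a string of letters and not a shown binding site. The 8 genes with an E2F word are shown with 16 bases on each side where the window allows, the word in capitals:
Pola1 (chrX:93632270-93632309, minus strand): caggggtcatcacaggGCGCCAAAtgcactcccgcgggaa
Pold1 (chr7:44548766-44548792, minus strand): ggcggcgtatcttgtgGCGGGAAAagc
Pold3 (chr7:100121462-100121501, minus strand): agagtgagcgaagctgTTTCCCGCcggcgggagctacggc
Pole2 (chr12:69228157-69228196, minus strand): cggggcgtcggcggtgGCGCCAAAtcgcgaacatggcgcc
Rfc3 (chr5:151651185-151651234, minus strand): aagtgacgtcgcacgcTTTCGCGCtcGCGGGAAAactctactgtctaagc
Gins3 (chr8:95633502-95633541, plus strand): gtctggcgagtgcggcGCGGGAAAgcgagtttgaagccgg
Lig1 (chr7:13278836-13278875, plus strand): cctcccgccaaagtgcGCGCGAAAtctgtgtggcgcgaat
Hells (chr19:38930912-38930951, plus strand): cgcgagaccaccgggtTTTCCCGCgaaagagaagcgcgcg

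The 8 genes with the word had log2 fold changes from 0.29 (Pola1) to 1.62 (Pole2), nearly the whole range of the set, and none of them was among the 4 called without the block. Of those 4, Rrm1 and Rfc5 had a window, and both are shown whole with the CCAAT words in capitals. Rrm1 had CCAAT at 2 places in the 100 bases before its start, and Rfc5 had none of the words:
Rrm1 (chr7:102441445-102441744, plus strand): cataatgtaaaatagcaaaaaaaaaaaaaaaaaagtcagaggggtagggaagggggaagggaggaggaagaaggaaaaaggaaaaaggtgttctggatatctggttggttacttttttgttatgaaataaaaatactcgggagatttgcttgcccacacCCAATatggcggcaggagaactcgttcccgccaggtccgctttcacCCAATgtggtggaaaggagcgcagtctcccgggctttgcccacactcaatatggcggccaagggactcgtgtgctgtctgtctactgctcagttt
Rfc5 (chr5:117388974-117389273, minus strand): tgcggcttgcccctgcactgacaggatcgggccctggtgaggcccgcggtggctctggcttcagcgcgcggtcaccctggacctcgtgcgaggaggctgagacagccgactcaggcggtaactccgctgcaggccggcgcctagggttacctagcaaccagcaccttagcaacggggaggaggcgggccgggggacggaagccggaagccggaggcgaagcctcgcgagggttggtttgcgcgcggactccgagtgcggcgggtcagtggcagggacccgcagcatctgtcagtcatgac

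Of polymerase alpha-primase, which starts each new strand, the primase subunit Prim2 rose, and the catalytic polymerase subunit Pola1 had the smallest fold change. Prim2 (ENSMUSG00000026134.11, chr1:33453810-33669795, minus strand) had 36.5, 39.7, 28.6 and 49.7 CPM in CV libraries A to D, against 10.8, 23.2, 6.87 and 11.1 CPM in GF libraries. All 4 CV values were above the highest GF value, that of pair B. The means were 38.6 ± 8.74 CPM in CV and 12.99 ± 7.08 CPM in GF libraries (log2 fold change 1.64, SE 0.36, adjusted p = 0.0197; adjusted p = 0.0104 with the block), a 3.12-fold rise. It missed the threshold without any of 4 libraries: its adjusted p by limma was 0.051, 0.0675 and 0.069 without CV libraries A, B and D and 0.0589 without GF library A. The catalytic primase subunit Prim1 was at 91.1 ± 16.5 CPM in CV and 41.6 ± 18.5 CPM in GF libraries without overlap, and its log2 fold change of 1.23 (SE 0.35, adjusted p = 0.0624, 0.0233 with the block) passed with the block alone. The accessory subunit Pola2 had 1.14 (SE 0.40, adjusted p = 0.108, 0.0268 with the block), and its GF library D, at 87.6 CPM, was above CV library C at 86.4 CPM.

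Pola1 (ENSMUSG00000006678.6, chrX:93304767-93632155, minus strand) had 20.4, 37.7, 36.7 and 25.6 CPM in CV libraries A to D, against 19.8, 20.7, 20.3 and 37.9 CPM in GF libraries. The CV range lay within the GF range, and in pair D the CV value was the lower one. Its log2 fold change was 0.29 (SE 0.32, 95% interval -0.39 to 0.98, adjusted p = 0.54, 0.526 with the block). Within the complex, the 4 genes had median log2 differences of 1.07, 0.69, 1.98 and 1.16 in pairs A to D.

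Of the 5 genes of polymerases epsilon and delta, which extend the primers, 1 rose without the block and all 5 with it. After centring on transcript length as well (described below), Pole and Pold3 alone passed with the block. Pole, which synthesizes the leading strand (ENSMUSG00000007080.14, chr5:110286306-110337474, plus strand), had 35.9, 46.6, 28.8 and 45.2 CPM in CV libraries A to D, against 15.6, 27.1, 8.45 and 14.9 CPM in GF libraries. The lowest CV value, in pair C, was just above the highest GF value, in pair B. The means were 39.1 ± 8.37 CPM in CV and 16.5 ± 7.76 CPM in GF libraries (log2 fold change 1.31, SE 0.35, adjusted p = 0.0466; adjusted p = 0.0189 with the block). Without 1 library at a time, Pole passed only without GF library B or C, and its adjusted p by limma was 0.0807 to 0.15 without each of the other 6. Its partner Pole2 was at 20.01 ± 5.10 CPM in CV and 8.73 ± 5.80 CPM in GF libraries, and GF library C had 0.574 CPM. The log2 fold change of Pole2 was 1.62 (SE 0.67, adjusted p = 0.151, 0.0491 with the block), and 0.76 without that library.

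Polymerase delta, the main lagging-strand enzyme, had no gene called without the block and all 3 with it. Its accessory subunit Pold3 had the most even differences of the complex, 0.90, 0.80, 1.03 and 1.08 on the log2 scale in pairs A to D, and its groups did not overlap (86.03 ± 18.1 CPM in CV and 44.3 ± 10.00 CPM in GF libraries). Its log2 fold change was 0.95 (SE 0.28, adjusted p = 0.067, 0.0288 with the block). The catalytic subunit Pold1 had 186, 177, 123 and 220.1 CPM in CV libraries A to D, against 75.1, 107, 26.5 and 167 CPM in GF libraries. GF library D lay within the CV range, and the log2 fold change was 1.15 (SE 0.46, adjusted p = 0.142, 0.0361 with the block). The small subunit Pold2 had 1.25 (SE 0.49, adjusted p = 0.137, 0.0348 with the block).

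**Figure D2:**
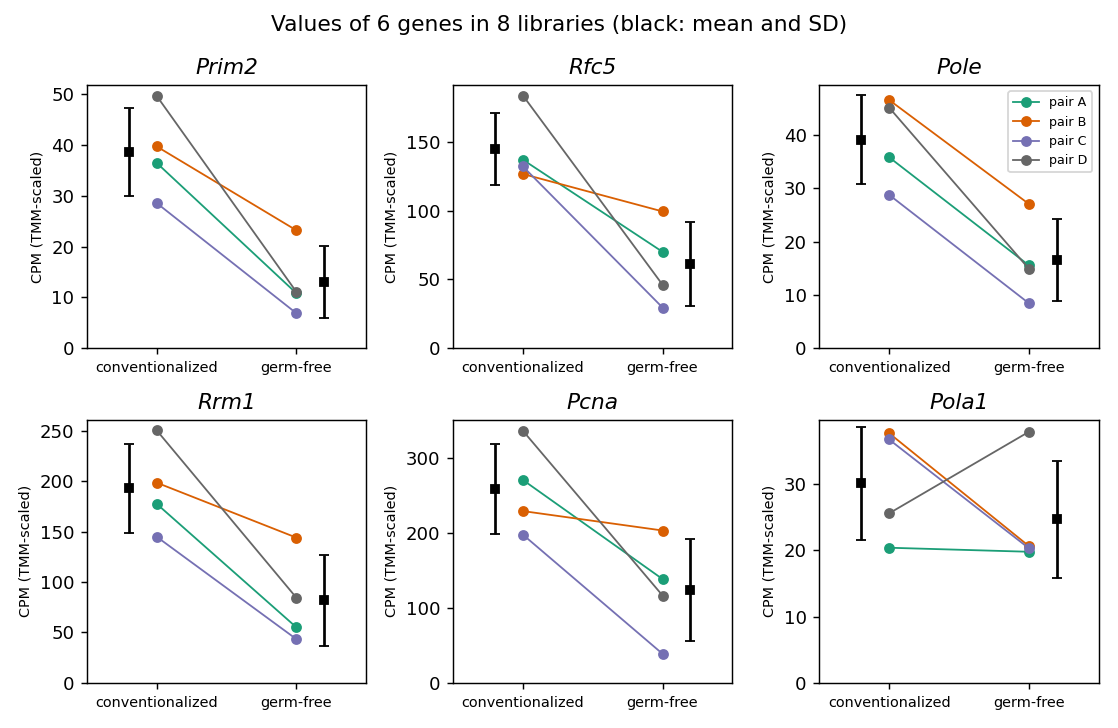
CPM of 6 genes in each library, CV left and GF right, with lines joining littermates and black squares with bars for mean and SD (n = 4). In Prim2, Rfc5, Pole and Rrm1 all 4 lines slope down towards the GF side, in Pcna the line of pair B is nearly flat, and in Pola1 the line of pair D runs the other way.

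Of the clamp loader, whose large subunit Rfc1 and small subunits Rfc2 to Rfc5 open and close the PCNA ring, Rfc5 was called and 4 of 5 genes rose with the block. Rfc5 (ENSMUSG00000029363.14, chr5:117378103-117389047, minus strand) had 137, 127, 132 and 184 CPM in CV libraries A to D, against 70.04, 99.4, 29.5 and 46.1 CPM in GF libraries. The CV values of pairs A, B and C lay close together, and all 4 were above the GF ones. The means were 145 ± 26.2 CPM in CV and 61.3 ± 30.4 CPM in GF libraries (log2 fold change 1.36, SE 0.35, adjusted p = 0.0417; adjusted p = 0.0233 with the block). Without 1 library at a time, Rfc5 passed only without GF library B or C, and its adjusted p by limma was 0.0707 to 0.145 without each of the other 6. Rfc2 had log2 fold change 1.18 (SE 0.39, adjusted p = 0.0974, 0.0313 with the block), Rfc3 1.45 (SE 0.50, adjusted p = 0.105, 0.0293 with the block) and Rfc4 1.52 (SE 0.49, adjusted p = 0.0883, 0.0407 with the block). In pair B, Rfc4 was at 51.9 CPM in the CV and 58.4 CPM in the GF littermate. Rfc1 was at 63.2 ± 17.99 CPM in CV and 42.2 ± 11.5 CPM in GF libraries, its log2 fold change was 0.56 (SE 0.31, 95% interval -0.10 to 1.23, adjusted p = 0.232), and it did not pass with the block (adjusted p = 0.139).

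The clamp itself, Pcna (ENSMUSG00000027342.14, chr2:132249162-132253314, minus strand), which tethers polymerases to DNA, had 271, 229.6, 198 and 337 CPM in CV libraries A to D, against 139, 204, 38.8 and 117 CPM in GF libraries. GF library B was just above CV library C, so the groups overlapped. The means were 259 ± 59.97 CPM in CV and 125 ± 67.99 CPM in GF libraries (log2 fold change 1.25, SE 0.44, adjusted p = 0.11; adjusted p = 0.0367 with the block), and the differences within pairs were 0.96, 0.17, 2.34 and 1.52 on the log2 scale.

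RPA and GINS, which work at the unwound DNA, had no gene called without the block. The large, DNA-binding RPA subunit Rpa1 had log2 fold change 1.16 (SE 0.38, adjusted p = 0.0948, 0.0198 with the block), Rpa2 1.05 (SE 0.38, adjusted p = 0.121, 0.0449 with the block) and the smallest subunit Rpa3 1.38 (SE 0.58, adjusted p = 0.154, 0.0583 with the block). Rpa3 was at 2.64 CPM in GF library C, against 20.3 to 31.6 CPM in the other GF libraries. Among the 4 pairs, the differences of the GINS genes were smallest in pair B. There Gins1 was lower in the CV littermate (log2 difference -0.14), and Gins4 was nearly level (-0.00095). The GINS subunit Gins2 rose with the block (log2 fold change 1.37, SE 0.43, adjusted p = 0.087, 0.0283 with the block). Gins1, Gins3 and Gins4 had log2 fold changes of 1.42, 1.06 and 1.02, with adjusted p of 0.0618, 0.0816 and 0.0619 by limma with the block. Tipin, which with Timeless steadies the fork, had 67.7, 56.8, 51.1 and 74.8 CPM in CV libraries A to D, against 28.1, 54.9, 3.33 and 37.03 CPM in GF libraries. Its GF values spread widely, and it did not pass (log2 fold change 1.52, SE 0.63, adjusted p = 0.15, 0.057 with the block).

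Both Okazaki fragment genes rose with the block. The flap nuclease Fen1 was at 169.8 ± 45.3 CPM in CV and 71.4 ± 35.1 CPM in GF libraries (log2 fold change 1.38, SE 0.40, adjusted p = 0.0661, 0.0163 with the block). The DNA ligase Lig1 was at 172 ± 54.4 CPM in CV and 79.3 ± 34.7 CPM in GF libraries (log2 fold change 1.23, SE 0.41, adjusted p = 0.0955, 0.0247 with the block). Neither had overlapping groups. Within pairs their median log2 differences were 1.04, 0.62, 2.10 and 1.44 in pairs A to D.

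The nucleotide supply genes had the largest median log2 fold change of the groups with at least 3 genes, 1.52. Chromatin assembly and histone supply followed at 1.46, and the difference was not tested. Centred on transcript length, this order of the medians was not kept. Nucleotide supply then had fold changes of 0.74 (Dut), 1.04 (Tk1), 1.15 (Rrm1), 1.28 (Rrm2) and 1.41 (Tyms). Chromatin assembly and histone supply then had 0.66 (Slbp), 1.26 (Hells), 1.29 (Chaf1b) and 1.48 (Chaf1a). Rrm1 (ENSMUSG00000030978.10, chr7:102441695-102469771, plus strand), the large subunit of ribonucleotide reductase, had 177, 198, 145 and 250.2 CPM in CV libraries A to D, against 55.1, 144, 43.3 and 84.4 CPM in GF libraries. The highest GF value, in pair B, was just below the lowest CV value, in pair C. The means were 193 ± 44.2 CPM in CV and 81.7 ± 44.97 CPM in GF libraries (log2 fold change 1.36, SE 0.37, adjusted p = 0.0499; adjusted p = 0.0154 with the block). Without 1 library at a time, Rrm1 passed only without GF library B or C, and its adjusted p by limma was 0.087 to 0.164 without each of the other 6. The small subunit Rrm2, whose supply is known to follow S phase, had 126, 98.6, 69.6 and 116 CPM in CV libraries A to D, against 28.2, 63.1, 10.5 and 52.6 CPM in GF libraries. Its groups did not overlap either, and its log2 fold change was 1.65 (SE 0.46, adjusted p = 0.0585, 0.0135 with the block).

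Tyms, which makes thymidylate (ENSMUSG00000025747.12, chr5:30058202-30073617, minus strand), had the largest fold change of all 34 genes and missed the threshold without the block. It had 218, 187, 165 and 283 CPM in CV libraries A to D, against 75.6, 143, 21.3 and 74.4 CPM in GF libraries. The groups did not overlap, and the log2 fold change was 1.69 (SE 0.46, adjusted p = 0.0535, 0.0161 with the block). The thymidine salvage enzyme Tk1 was at 178 ± 60.00 CPM in CV and 71.96 ± 41.6 CPM in GF libraries (log2 fold change 1.52, SE 0.49, adjusted p = 0.0881, 0.0274 with the block). The dUTPase gene Dut overlapped, with 90.7 CPM in the CV and 93.9 CPM in the GF animal of pair B, and did not pass (log2 fold change 1.13, SE 0.46, adjusted p = 0.146, 0.0604 with the block).

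All 4 genes of chromatin assembly and histone supply rose with the block, and none without it. After centring on transcript length as well, Chaf1a and Hells alone passed with the block. The CAF-1 subunits Chaf1a and Chaf1b had log2 fold changes of 1.58 (SE 0.57, adjusted p = 0.117, 0.0206 with the block) and 1.68 (SE 0.61, adjusted p = 0.118, 0.0304 with the block). Chaf1b was at 85.9, 77.6, 57.5 and 106 CPM in CV libraries A to D, against 35.8, 55.96, 4.16 and 40.7 CPM in GF libraries. GF library C was far below the other 3, and without it the log2 fold change was 0.87 (adjusted p = 0.0616). The chromatin remodeller Hells was at 39.3 ± 10.2 CPM in CV and 16.3 ± 6.91 CPM in GF libraries (log2 fold change 1.34, SE 0.38, adjusted p = 0.0624, 0.0201 with the block). Slbp, which binds the stem-loop of histone mRNA, was at 173 ± 33.9 CPM in CV and 87.4 ± 35.3 CPM in GF libraries (log2 fold change 1.06, SE 0.34, adjusted p = 0.0893, 0.0368 with the block).

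**Figure D3:**
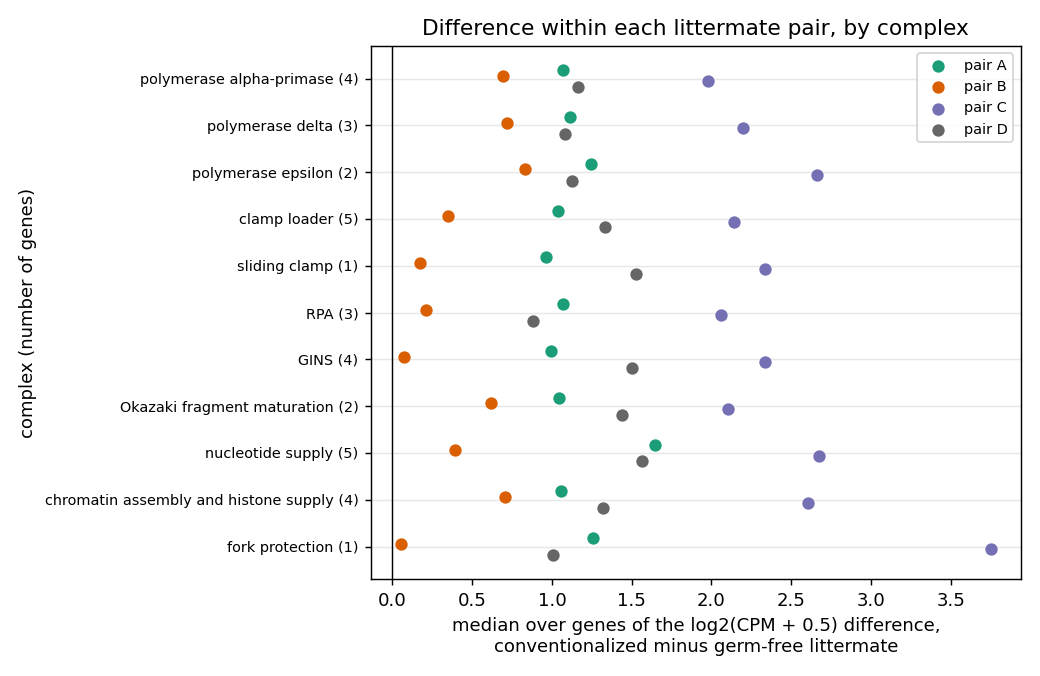
Median over the genes of each complex of the log2(CPM + 0.5) difference between the CV and the GF littermate (x axis), for pairs A to D (colours) and 11 groups of genes (rows, with the number of genes). All points lie above 0; pair B has the smallest and pair C the largest difference in every row, from 0.05 for Tipin in pair B to 3.75 for Tipin in pair C.

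Levels were compared between genes per kilobase of transcript (CPM divided by the length of the principal transcript). Pold2 and Pcna were the highest, at 175 ± 54.8 and 171 ± 39.5 CPM per kb in CV libraries and 84.6 ± 44.5 and 82.02 ± 44.8 CPM per kb in GF libraries, followed by Tk1 at 124 ± 41.7 and 49.97 ± 28.9 CPM per kb. Pole and Pola1 were the lowest in CV libraries, at 5.46 ± 1.17 and 5.63 ± 1.59 CPM per kb, and Pole was the lowest in GF libraries, at 2.31 ± 1.08 CPM per kb. Within polymerase delta, Pold2 stood above Pold1 (51.04 ± 11.6 and 27.2 ± 17.1 CPM per kb) and Pold3 (28.03 ± 5.90 and 14.4 ± 3.26 CPM per kb) in both groups. Within the clamp loader, Rfc1 was the lowest in both, at 13.3 ± 3.79 and 8.89 ± 2.42 CPM per kb, and Rfc3 the highest, at 73.9 ± 18.4 and 32.8 ± 18.9 CPM per kb. Before division by length Rfc2 was above Rfc3 (244 against 97.3 CPM in CV libraries), with transcripts taken as 4995 and 1317 bp. The order of genes per kb thus depends on the transcript taken for each gene.

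Transcript length moved with the fold changes of all genes. Over all tested genes the median log2 fold change was 0.69 for transcripts of up to 1000 bp and 0.07 for those over 4500 bp. The 7 genes of the set over 4500 bp had a median of 1.18, and the 5 genes between 1000 and 1500 bp one of 1.45. Pola1 and Rfc1, at 5346 and 4751 bp, are among the 7, and so are Pole, Hells and Chaf1a, with log2 fold changes of 1.31, 1.34 and 1.58. After each library was centred on transcript length, a step chosen after the values were seen, the median of the set was 0.97 and that of all genes 0.03. Then 8 genes of the set rose, Prim1, Prim2, Pold3, Pole, Rfc5, Fen1, Rrm1 and Slbp, where 1.88% of all tested genes did and 7.18% fell. With centring and the block 12 rose, against 3.01% of all tested genes, while 8.25% fell. They were Prim1, Prim2, Pold3, Pole, Rfc5, Rpa1, Fen1, Rrm1, Rrm2, Tyms, Chaf1a and Hells. Prim2, Pole, Rfc5 and Rrm1 were called in both centred fits. Pola2, Pold1, Pold2, Pole2, Rfc2, Rfc3, Rfc4, Pcna, Rpa2, Gins2, Lig1, Tk1, Slbp and Chaf1b passed with the block before centring and missed after it.

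**Figure D4:**
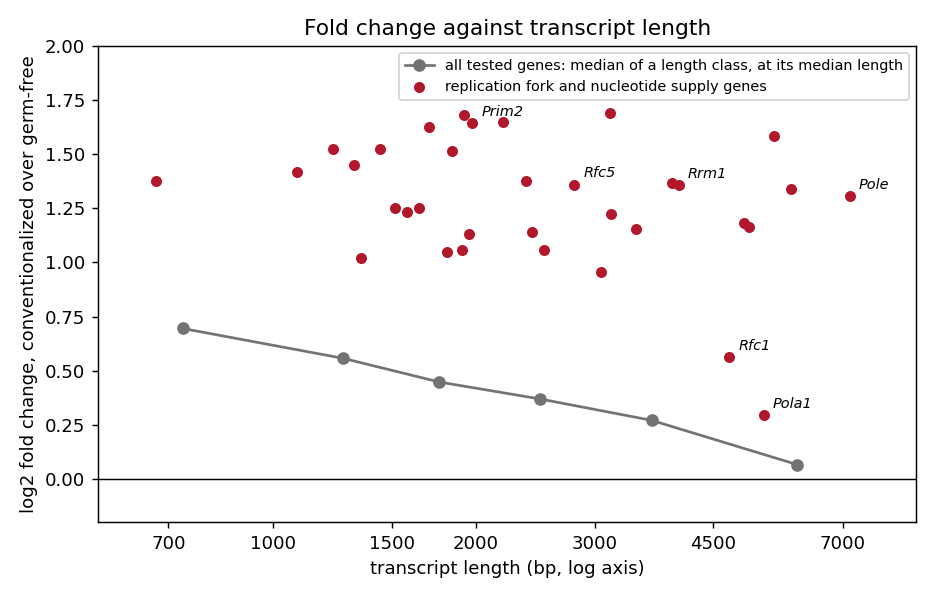
Log2 fold change (y axis) against the length of the principal transcript (x axis, log scale) for the 34 genes (red points), with the median fold change of all tested genes in 6 length classes (grey, from 0.69 to 0.07). All red points lie above the grey line, and Pola1 and Rfc1 lie nearest to it among the long transcripts.

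Other genes of the same processes were read beside the set, from lists drawn up by function. Of 18 tested genes that assist the fork, 0 were called, 13 had an unadjusted p under 0.05, and 9 rose with the block (median log2 fold change 1.21). The lowest p was that of Rnaseh2a, a subunit of the nuclease that removes ribonucleotides (158 ± 43.9 CPM in CV and 71.8 ± 29.2 CPM in GF libraries, log2 fold change 1.20, SE 0.35, adjusted p = 0.069, 0.0275 with the block), followed by Dscc1, part of an alternative clamp loader (log2 fold change 1.35, SE 0.40, adjusted p = 0.0695, 0.05003 with the block, which did not pass). Dscc1 had 13.5 to 18.9 CPM in CV and 2.90 to 8.80 CPM in GF libraries, so it met the expression minimum through the CV libraries alone. Of 25 tested genes of nucleotide synthesis outside the set, 0 rose and 1 fell by limma (15 with an unadjusted p under 0.05 in either direction), and with the block 10 rose and 1 fell (median 0.90). The one that fell was Impdh1, an enzyme of guanine nucleotide synthesis, which had 51.5, 44.9, 39.4 and 69.3 CPM in CV libraries A to D, against 114, 80.8, 123 and 111 CPM in GF libraries. Its groups did not overlap (log2 fold change -1.07, SE 0.28, adjusted p = 0.0397). Impdh1 passed without CV library D or GF library B or C and missed without each of the other 5, with an adjusted p of up to 0.127 by limma. Of 8 further genes that handle histones and chromatin at the fork 1 rose, the histone chaperone Asf1b (88.6 ± 20.9 CPM in CV and 33.4 ± 14.98 CPM in GF libraries; log2 fold change 1.48, SE 0.34, adjusted p = 0.0253), and 3 rose with the block (Asf1b, Nasp and Uhrf1). Asf1b passed without GF library B or C and missed without each of the other 6, with an adjusted p of up to 0.0913 by limma.

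Licensing genes had a median fold change close to that of the fork and nucleotide genes, and mitosis genes a higher one; the difference between the lists was not tested. Of 18 licensing and helicase genes, 2 rose, Cdc45 of the active helicase (log2 fold change 1.55, SE 0.41, adjusted p = 0.0481) and the kinase Cdc7 that fires origins (log2 fold change 1.71, SE 0.44, adjusted p = 0.0397), and 12 rose with the block. Of the 18, 7 rose without GF library B, 3 without GF library C and 0 without each of the other 6 libraries, where the adjusted p of Cdc45 and Cdc7 by limma reached 0.15 and 0.135. Their median log2 fold change was 1.31, and their median differences within pairs A to D were 1.22, 0.60, 2.15 and 1.17. Of 25 mitosis genes 15 rose, and 24 with the block, with a median of 1.69 and differences within pairs of 1.65, 0.92, 2.77 and 1.42. The number that rose was 22 without GF library B, 23 without C and 12 without D, and without GF library A or any 1 CV library 2 or 3 did. Kif23 and Racgap1 passed in all 8 of these fits, Mki67 in 5, and the other 12 in 2 or 3 each. The proliferation marker Mki67 was at 95.9 ± 37.6 CPM in CV and 31.3 ± 9.80 CPM in GF libraries without overlap (log2 fold change 1.56, SE 0.34, adjusted p = 0.0192). The cytokinesis kinesin Kif23 had the lowest p of the list, with a log2 fold change of 2.11 (SE 0.41, adjusted p = 0.0105). The other 13 that rose were Racgap1, Ttk, Cdk1, Cenpf, Mad2l1, Ndc80, Cdc20, Plk1, Aurkb, Ccnb1, Incenp, Ccnb2 and Tpx2, with log2 fold changes from 1.27 (Tpx2) to 2.15 (Ccnb2).

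The summed level of the 34 genes was 3893, 3573, 2925 and 5007 CPM in CV libraries A to D, against 1764, 2682, 646 and 2071 CPM in GF libraries. Every CV sum was above every GF sum. Markers of other cells differed in the same libraries. Of 16 enteroendocrine markers, genes of the hormone-secreting cells, 9 fell (Neurod1, Scg3, Pcsk1, Scg5, Scg2, Tph1, Ghrl, Chga and Chgb) and 0 rose, and their sum was 11616 to 28771 CPM in CV and 46395 to 110108 CPM in GF libraries. Of 10 markers of active stem cells 1 rose, Lgr5, a receptor for R-spondins (263 ± 139.7 CPM in CV and 67.1 ± 36.9 CPM in GF libraries; log2 fold change 1.94, SE 0.50, adjusted p = 0.0397; groups overlapping), and their sum was 5423 to 10617 CPM in CV libraries, against 961 to 5548 CPM in GF libraries. In 4 of them, Lgr5, Smoc2, Cdca7 and Slc12a2, the rise passed with the block. Lgr5 passed without CV library A or GF library B and missed without each of the other 6, with an adjusted p of up to 0.127 by limma (0.111 without GF library C), and missed after centring on transcript length (0.0578). The part of these cell types in the replication gene differences was not tested.

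The other marker lists gave few calls. Goblet cell markers had 0 of 8 called by limma (0 at an unadjusted p under 0.05), and their sum was 1580.5 to 50885 CPM in CV libraries, highest in that of pair A, and 4092 to 8201 CPM in GF libraries. Of 8 Paneth cell markers 1 rose (Mptx2), and of 6 tested tuft cell markers 0 were called (0 at an unadjusted p under 0.05). Of 10 tested enterocyte markers 3 fell (Slc15a1, Sis and Krt20) and 0 rose. The enterocyte list was split, with a positive log2 fold change in 5 of the 10 and a median of 0.12. None of 14 leukocyte markers reached the expression minimum, and their sum was 10.8 to 30.4 CPM in CV and 20.3 to 34.9 CPM in GF libraries. Of 10 endothelial and stromal markers 2 were tested and 1 fell (Pecam1), with sums of 6.02 to 39.4 CPM in CV libraries and 35.3 to 69.4 CPM in GF libraries. No marker of any list was at 0 in every library.

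**Figure D5:**
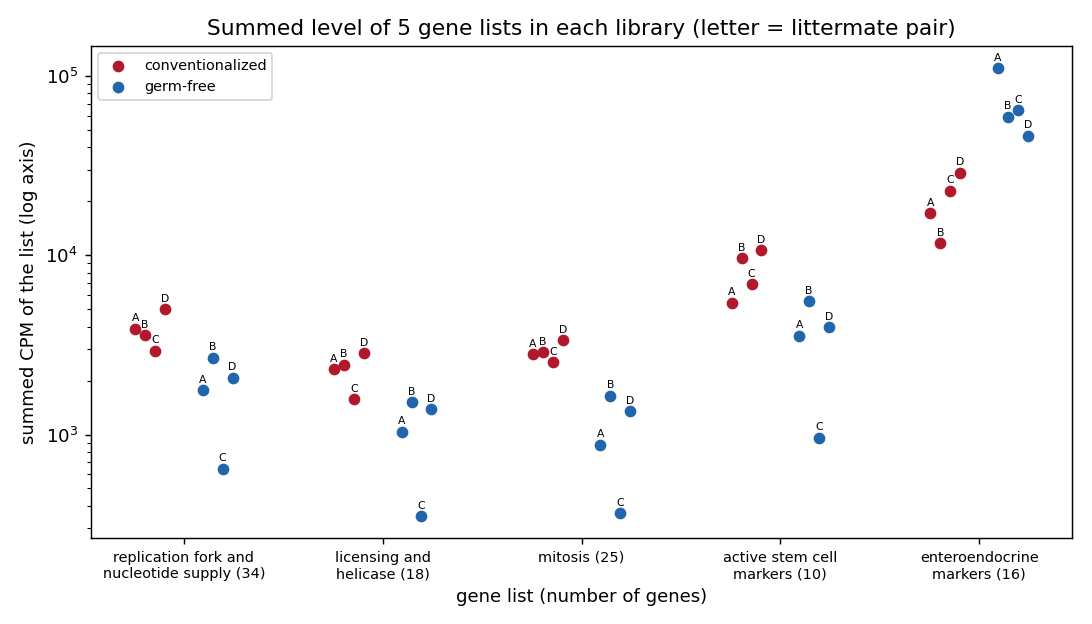
Summed CPM (y axis, log scale) of 5 gene lists in each library, CV in red left of GF in blue, with the letter of the littermate pair. The 34 replication genes sum to 2925 to 5007 CPM in CV and 646 to 2682 CPM in GF libraries, and the enteroendocrine markers are lower in all CV libraries.

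The exons of 12 of the 34 genes overlap another annotated gene, by 44 to 4648 bp, and 10 of these overlap a gene on the opposite strand. The labels do not say whether counting used strand, so reads of such partners cannot be told apart. Among the called genes this holds for Rfc5 (499 bp shared with Wsb2) and Pole (78 bp shared with an antisense gene). The longest overlaps, all with a gene on the opposite strand, were in genes not called without the block. They were those of Chaf1a (4648 bp with Ubxn6), Gins2 (2758 bp with Gse1) and Fen1 (1909 bp with Gm10143). Pcna and Tyms have annotated pseudogenes that can share their reads, so their levels are less certain.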

How the data were processed

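Per the submitters' processing notes, the authors used mm10 as the build, with STAR 2.4.2a, Trimmomatic 0.36, DESeq2 1.12.4 and R 3.3.1, and the series text names Salmon and edgeR. Libraries were made from 10 ng of total RNA and read as 100 bp single ends, per the labels. The values deposited by the authors are a normalized signal per gene. As read from genes with 1 transcript, it is estimated counts divided by 1 size factor per library. A further factor in genes with several transcripts is possible and was not tested. In 27909 genes with 1 transcript 99.8% of values above 0 were whole multiples of a step per library (0.736 to 1.35; tolerance 0.02), against 22.9% in 20149 genes with several, so whole reads were not recovered and count models were not used.

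All 8 columns matched library titles, and 48058 of 48440 gene IDs matched GENCODE M21 (GRCm38). The signal was scaled to CPM by TMM (trims of 30% and 5%, published formula), and 10053 genes that reached 10 CPM in 4 or more libraries were tested with limma 3.58.1 in R 4.3.3 on log2(CPM + 0.5), with trend and robust moderation and condition as the only term. P-values are two-sided, adjusted by Benjamini-Hochberg over all tested genes and called under 0.05. The fit without the block was tested on simulated data with independent noise and planted changes larger than those of the set. Pair effects, a length trend and a library apart from the others were not simulated, so that test does not cover them. The depth of single genes is unknown. P-values set each difference against the spread among the animals of a group, moderated over genes. With the block, the spread left after the pair is fitted takes its place.

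Per the labels, the littermates pair the libraries, so the pair was also fitted as a block. Within pairs A to D the deviations from the group means correlated at 0.142, -0.156, 0.307 and -0.00634. Changes are relative to the scaling: TMM put the median of all genes at 0.32 and library size alone at 0.09 on the log2 scale, and the set stood 1.00 and 1.01 above it. With TMM and without GF library C, the set stood 0.60 above the median of all genes. The genes and lists were chosen with earlier results of these data known. Of the other fork, nucleotide, histone, licensing and mitosis lists, the genes called or else the 2 with the lowest p were named, plus Sox9, Mki67 and Lgr5. Marker genes named for a cell type, and genes named for the block, were chosen after their values were seen. Promoter windows are from RefSeq (GRCm38.p6). Alternatives covered scaling, filter, pseudocount, weights, the block and libraries left out; centring on length was added after the data were seen.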

Additional observations from a re-analysis of the deposited data

Results flagged for a closer look

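In 2 of 68 groups of 4 values (34 genes in CV and in GF libraries), 1 library lay apart from the other 3 by Dixon's criterion, which chance passes in roughly 5% of groups. Pola1 was at 37.9 CPM in GF library D, against 19.8 to 20.7 CPM in the other GF libraries. Rpa2 was at 165 CPM in CV library D, against 111 to 118 CPM in the other CV libraries. The cause was not tested.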

How the results depend on the processing

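Over 24 alternative settings, every fold change of the 32 to 34 genes tested in each stayed positive, and 0 genes of the set were called lower. Their median log2 fold change ran from 0.82 to 1.62. The number of genes called higher, 4 as reported, was 26 with the replicate block of littermate pairs, 24 with sample quality weights, 10 with upper-quartile scaling, 1 with no filter and 1 with a filter of 1 CPM in 4 libraries, under which more genes are tested. It was 8 with centring on transcript length and 12 with centring and the replicate block. Over all genes, 117 were higher and 378 lower as reported. Higher genes numbered 812 with the block, 765 with weights, 263 (408 lower) with upper-quartile scaling, 45 with no filter, 235 without CV library A and GF library C, 189 with centring and 303 with centring and the block. Lower genes numbered 608 with weights, 722 with centring and 829 with centring and the block. Leaving out 1 library gave 0 to 13 genes of the set, and 14 to 410 higher and 151 to 372 lower genes in all. Leaving out 1 pair with the block gave 2 to 30 genes of the set, and 47 to 2408 higher and 269 to 537 lower genes. For single genes, 651 of the values under these alternatives kept their side of the threshold, 124 passed it where the reported one did not, and 37 no longer passed. Rfc5, Pole and Rrm1 passed in 2 of the 8 fits that left out 1 library, those without GF library B or C, and their adjusted p by limma reached 0.145, 0.15 and 0.164 in the others. The causes of the other shifts were not tested. The GF libraries differed among themselves, and GF library C had the lowest depth, 6209041 on an approximate read scale. Their part in the precision of these values was not tested.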

Other observations

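The 2 largest subunits of their complexes with the smallest fold changes, Pola1 and Rfc1, were picked after their values were seen, so their shares are given with no test. Pola1 made up 8.08, 13.8, 16.4 and 7.47% of the summed CPM of polymerase alpha-primase in CV libraries A to D, against 16.04, 11.6, 30.6 and 21.6% in GF libraries. Its share was higher in the GF littermate in pairs A, C and D and lower in pair B. Rfc1 made up 10.8, 14.2, 7.46 and 8.35% of the summed CPM of the clamp loader in CV libraries, against 10.9, 12.4, 26.6 and 15.3% in GF libraries. Its share stood highest in GF library C, where long transcripts were also the least reduced, and the part of transcript length in it was not tested.

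Nucleotide synthesis outside the set held a gene of the opposite direction. Impdh1 was at 51.2 ± 13.00 CPM in CV and 107 ± 18.3 CPM in GF libraries, and its log2 differences within pairs A to D were -1.14, -0.84, -1.63 and -0.68.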
